A study of Mus musculus with 2 samples.

Results

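Chemokines are small secreted proteins that guide cell movement, and their receptors are G protein-coupled receptors on the moving cell. The genes of both were compared between ILC progenitors labelled Yeats4 knockout and wild-type ILC progenitors. Members were taken by symbol in the platform annotation: the Ccl, Cxcl, Xcl and Cx3cl ligands and the Ccr, Cxcr, Xcr, Cx3cr and Ackr receptors. This gave 59 of the 19505 named genes on the array, 38 ligands and 21 receptors, and for a gene with several probe sets the brightest was used. The mouse progenitors had been sorted as lineage-negative cells with CD127 and integrin α4β7 on their surface and with c-Kit and Sca-1 at an intermediate level, from mice with a Yeats4 deletion and from their wild-type littermates. Yeats4 encodes a chromatin protein that binds acetylated histones. How and in which cells the gene was deleted, the age of the mice and how many were used are not stated by the labels. Each genotype had 1 array, so every value below is a single reading, every difference lacks a replicate check, and no test was possible.

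Chemokine ligands fall into CC, CXC, XC and CX3C classes by the spacing of their first cysteines. Homeostatic chemokines such as CXCL12 are made by bone marrow and lymphoid stroma and hold or place progenitors that carry the matching receptor, whereas inflammatory chemokines are made by activated leukocytes and recruit effector cells. CXCR4, CCR7 and CCR9 steer lymphoid progenitors within the marrow and towards the thymus and lymphoid tissue, and CXCR6 is a surface marker of committed ILC progenitors. The atypical receptors (Ackr genes) bind chemokines without G protein signalling and so shape their gradients.

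All values are log2 expression as deposited, and each difference is knockout minus wild type, so that 1 means 2-fold. Genes with a mean of both arrays of at least 2.88, the median of all probe sets, are said to have passed the level filter, and 10881 genes did. The negative control level is the 95th percentile of 5222 negative control probe sets, 4.73 on the array labelled knockout and 4.80 on the wild-type array, and a gene under it on both arrays is called near background. The local spread of a gene is the scaled median absolute deviation of the differences of the 500 genes nearest in mean level. It describes the scatter between these arrays and is not a replicate error. The median difference of all genes past the filter was 0.08. Yeats4 itself read 5.90 in the sample labelled knockout and 5.96 in wild type, a gap smaller than its local spread of 0.34. Where its probes lie relative to the deletion is not known here, so this reading does not check the label, and the sample is called by its label throughout. A brightness is not comparable between genes, so no gene's level is set against another's. From each marker list the 2 highest-read probe sets are named by rule, and the summed linear signal of a list is weighted towards its bright probe sets.

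Of the 59 members, 29 passed the level filter and 17 were at or above the negative control level on 1 or both arrays. These were 10 ligands and 7 receptors, and the other 28 ligands and 14 receptors were near background. Among the members past the filter, Cxcl12 passed 2-fold upwards on the array labelled knockout and Ccl5 downwards, and none of the 10 receptors past the filter differed 2-fold. Over all genes past the filter 1.56% passed 2-fold upwards and 0.781% downwards. At 1.5-fold, 2 ligands were higher (Cxcl12 and Ccl27a) and 2 lower (Ccl5 and Ccl6), and 1 receptor was higher (Ccr3) and 1 lower (Cxcr6), against 9.16% of all genes upwards and 5.16% downwards. These calls are as measured. Against the control level, used as a floor, Ccl27a, Ccr3 and Cxcr6 did not reach 1.5-fold, whereas Cxcl12, Ccl5 and Ccl6 did. Of all 19505 genes, 387 were at least 1.5-fold higher against that floor and 89 lower. At 2-fold, 19 were higher and 23 lower. The 10 receptors had 2 higher and 8 lower readings, with a median difference of -0.28, while the 19 ligands had 10 higher and 9 lower readings, with a median of 0.04. Over all genes past the filter 58.2% of readings were higher and 41% lower. Without a level filter the medians were -0.18 for the 21 receptors, -0.04 for the 38 ligands and 0.01 for all 19505 genes. The sign of the ligand median therefore depended on the filter, and with no filter no further member passed 2-fold, against 1.16% of all genes upwards and 0.702% downwards. Of the 10 ligands at or above the control level, 6 read higher and 4 lower, and of the 7 receptors 2 read higher and 5 lower, while 66.4% of all genes so measured read higher and 33.3% lower. The difference was larger than the local spread for 7 of these 10 ligands and 3 of these 7 receptors, against 38.8% of all such genes. The plot of readings on both arrays shows these 17 genes, and the plot of differences against level sets all members among all genes.

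**Figure D1:**
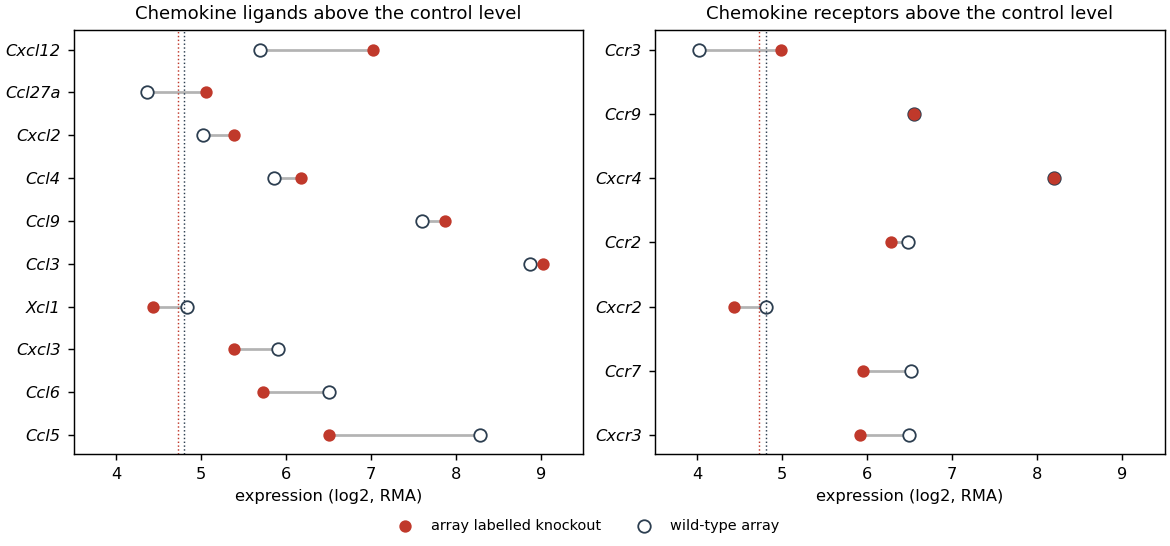
Log2 expression (x axis) of the 10 chemokine ligands (left) and 7 receptors (right) at or above the negative control level on 1 or both arrays. Filled red points are the array labelled knockout, open points the wild-type array, dotted lines the negative control level of each array (4.73 and 4.80), and rows are ordered by difference. Ccl5 and Cxcl12 are farthest apart, and the points of Cxcr4 and Ccr9 coincide.

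**Figure D2:**
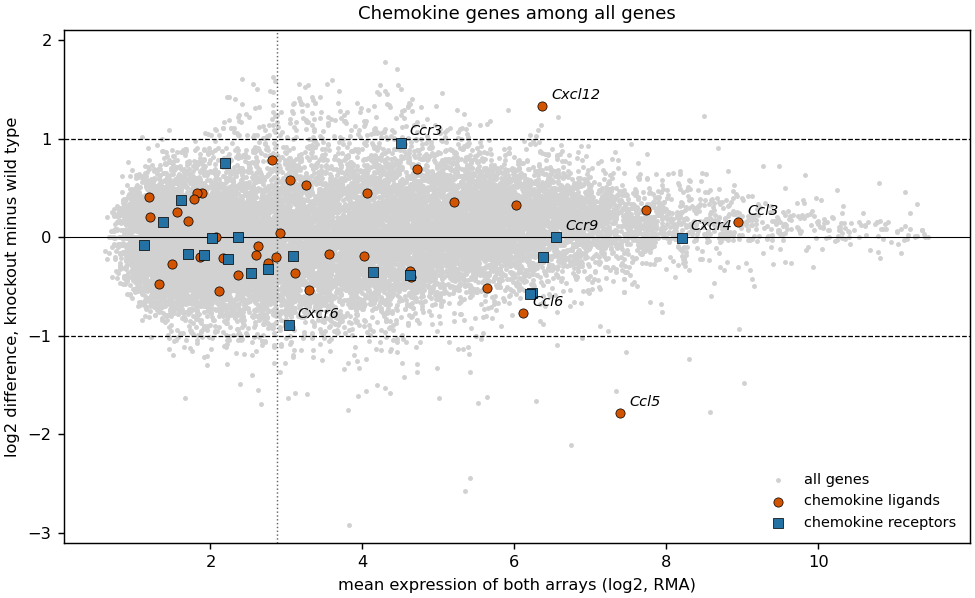
Difference (knockout minus wild type, log2, y axis) against the mean of both arrays (log2, x axis) for all named genes (grey), the 38 ligands (orange circles) and the 21 receptors (blue squares). Dashed lines mark 2-fold and the dotted line the level filter of 2.88. Cxcl12 lies above the upper dashed line and Ccl5 below the lower.

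CXCL12 is the ligand of CXCR4 and the main retention signal of the bone marrow stroma. The probe set of Cxcl12 (Entrez gene 20315) read 7.03 on the array labelled knockout and 5.70 on the wild-type array. Both readings were above the negative control level. The difference of 1.33, or 2.52-fold higher, compares with a local spread of 0.29. Its receptor gene Cxcr4 (Entrez gene 12767) read 8.20 on the array labelled knockout and 8.20 on the wild-type array, differing by -0.0044 (local spread 0.20). The ligand gene thus read higher on the array labelled knockout while the receptor gene read alike on both. The atypical CXCL12 receptor gene Ackr3 was near background, at 2.35 on the array labelled knockout and 2.72 on the wild-type array.

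Cxcl12 is expressed by reticular stromal cells, which the sort should not contain, and genes of such cells were read on the same arrays. In a list of 17 marrow stromal genes, written after the Cxcl12 reading and some of the others had been seen, 16 were measured. Of these, 12 read higher and 4 lower on the array labelled knockout, with a median difference of 0.62. Over all 19505 genes 9915 read higher and 9081 lower. The 4 lower were Col1a2 (-1.08, near background), Col1a1 (-0.26), Lpl (-0.26) and Sparc (-0.15). Of the 6 stromal genes at or above the control level on 1 or both arrays, 4 read higher and 2 lower. Among all genes so measured, 66.4% read higher and 33.3% lower. Only 1 of the 6, Vcam1, reached that level on both arrays. Angpt1, Bgn and Pdgfrb reached it only on the array labelled knockout, and Col1a1 and Lpl only on the wild-type array. On the linear scale the summed signal of the 16 was 344 on the array labelled knockout and 227 on the wild-type array. Without the highest-read gene, Vcam1, it was 232 and 170 in the same order. The highest-read were the adhesion receptor gene Vcam1 and the proteoglycan gene Bgn. Vcam1 was at 6.81 on the array labelled knockout against 5.84 in wild type, and Bgn at 5.27 and 4.45 in the same order. The wild-type reading of Bgn was under the control level, so its fold is only bounded at 1.38 or more. Near background on both arrays were 10 of the 16, among them the defining stromal genes Lepr, Kitl, Adipoq and Foxc1. Macrophages also express Vcam1, which counts in both the stromal list and a list of 10 macrophage genes. All 10 macrophage genes read higher on the array labelled knockout, with a median of 0.79. Only 6 of the 10, Vcam1 among them, reached the negative control level, and Adgre1, Cd163, Cd5l and Mertk stayed under it. The part of stromal cell and macrophage RNA in the Cxcl12 difference was not tested. In bulk samples, a change in the number of cells of a type and a change in RNA per cell cannot be told apart.

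CC chemokines made by cytotoxic lymphocytes and myeloid cells include CCL3, CCL4 and CCL5, and XCL1, an XC chemokine of lymphocytes, attracts cross-presenting dendritic cells through XCR1. The probe set of Ccl5 (Entrez gene 20304) read 6.50 on the array labelled knockout and 8.29 on the wild-type array, differing by -1.78 (local spread 0.24). This is 3.44-fold lower in the sample labelled knockout. Ccl3 read 9.02 on the array labelled knockout and 8.87 on the wild-type array, a difference of 0.15 inside its local spread of 0.18. Ccl4 read 6.18 on the array labelled knockout and 5.85 on the wild-type array, differing by 0.33 (local spread 0.34). Among these CC ligand genes, then, Ccl5 read lower and the others slightly higher. Xcl1 read 4.44 on the array labelled knockout and 4.84 on the wild-type array, where it lay just above the negative control level. Its fold is a lower limit of 1.02, against the control level, and its receptor gene Xcr1 was near background.

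T cells and NK cells express Ccl5 and Xcl1, and markers of both were read beside them. Of 13 measured T cell genes, 11 read lower on the array labelled knockout, with a median difference of -1.18. Over all 19505 genes 9081 read lower. As measured, 9 of the 11 passed 2-fold. Against the control level as a floor 5 of them did (Cd3e, Cd3g, Cd8a, Cd8b1 and Cd28), and 23 of all 19505 genes passed 2-fold downwards. On the array labelled knockout 5 of the 13 were at or above the negative control level, against 10 on the wild-type array. Their summed linear signal was 306 on the array labelled knockout and 846 on the wild-type array. The highest-read were Cd3e, a chain of the T cell receptor complex, at 5.69 on the array labelled knockout against 7.79 in wild type, and the adaptor gene Lat, at 5.99 and 6.67 in the same order. The 10 measured NK cell genes had 5 higher and 5 lower readings and a median of -0.25, but 6 of them were near background. Of the 4 at or above the control level on 1 or both arrays, 3 read lower, namely the IL-2 receptor chain gene Il2rb (-1.09), the T-box factor gene Eomes (-1.06) and the lectin receptor gene Klrd1 (-0.95), and the granule gene Nkg7 read higher (0.53). Among all genes at or above that level on 1 or both arrays, 33.3% read lower. The median of the NK cell genes past the level filter was -0.68. Their summed signal was 733 on the array labelled knockout and 668 on the wild-type array with Nkg7, and 163 and 273 in the same order without it. On the array labelled knockout 2 of the 10 NK cell genes were at or above the control level, against 4 on the wild-type array. The part of T cell and NK cell RNA in the Ccl5 difference was not tested.

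CCL6 and CCL9 are CC chemokines of mouse myeloid cells that act through CCR1. Ccl6 (Entrez gene 20305) read 5.73 on the array labelled knockout and 6.50 on the wild-type array, differing by -0.77 (local spread 0.33). Ccl9 (Entrez gene 20308) read 7.87 on the array labelled knockout and 7.60 on the wild-type array, differing by 0.27 (local spread 0.22). The pair therefore read in opposite directions, by 1.71-fold lower for Ccl6 and 1.21-fold higher for Ccl9. After a loess correction on level Ccl9 was at 0.12, inside its local spread, and Ccl6 at -0.92. Their receptor gene Ccr1 was near background, at 2.99 on the array labelled knockout and 3.18 on the wild-type array. In the reference gene order of GRCm38.p6, used here for order only, Ccl5, Ccl9, Ccl6, Ccl3 and Ccl4 are consecutive protein-coding genes. Their differences along that row were -1.78, 0.27, -0.77, 0.15 and 0.33, so neighbouring genes of the cluster did not read in a common direction.

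Mouse eosinophils express Ccl6, and eosinophil genes also read lower on the array labelled knockout. Of 6 measured, 5 were lower, with a median difference of -1.52. Over all 19505 genes 9081 read lower. Against the control level as a floor 4 of the 5 still passed 2-fold downwards, and 23 of all 19505 genes did. The summed linear signal of the 6 was 661 on the array labelled knockout and 1957 on the wild-type array. The granule gene Prg2 read 8.28 on the array labelled knockout against 9.76 in wild type, and the ribonuclease gene Ear6 read 7.69 and 9.47 in the same order. Siglecf and Il5ra, which define the lineage at the surface, were near background on both arrays. Their part in the Ccl6 difference was not tested.

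CXCL1, CXCL2 and CXCL3 recruit neutrophils through CXCR2, and their genes are classical targets of the transcription factor NF-κB. Cxcl2 (Entrez gene 20310) read 5.39 on the array labelled knockout and 5.02 on the wild-type array, differing by 0.36 (local spread 0.34). Cxcl3 (Entrez gene 330122) read 5.38 on the array labelled knockout and 5.90 on the wild-type array, differing by -0.52 (local spread 0.34). These paralogs thus read in opposite directions as deposited. Cxcl2 only just passed its local spread, and Cxcl3 passed it by more. After a loess correction on level Cxcl2 was at 0.26, inside its local spread, and Cxcl3 at -0.65. Cxcl1, Cxcl5 and Cxcl15 were near background, with differences of -0.37, 0.39 and -0.47. The receptor gene Cxcr2 read 4.44 on the array labelled knockout and 4.82 on the wild-type array, just above the negative control level, so its fold is only bounded at 1.01 or more. All 12 neutrophil genes were above the negative control level on both arrays. Of these, 4 read higher and 8 lower on the array labelled knockout, with a median of -0.26. Among all genes at or above that level on 1 or both arrays, 66.4% read higher and 33.3% lower. The summed signal of the 12 neutrophil genes was 12708 on the array labelled knockout and 11365 on the wild-type array. The granule genes Elane and Mpo were at 11.47 and 11.34 on the array labelled knockout and 11.14 and 11.09 on the wild-type array. With Prtn3 (0.55) and Ctsg (0.72) they make up the 4 higher genes. The 8 lower ones include Ltf (-0.55), Mmp9 (-0.50), Itgam (-0.42) and Camp (-0.41). The part of neutrophil RNA in these readings was not tested.

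The 250 bases before the start of 3 of these genes are shown because Cxcl12 had the highest difference of the 59 members and because Cxcl2 and Cxcl3, paralogs of the same gene cluster, read in opposite directions. They are RefSeq sequences of build GRCm38.p6, 5′ to 3′. Capitals mark matches to an NF-κB motif, GGG and TTTCC separated by any 2 bases, searched on both strands.
Cxcl12 (chr6:117168285-117168534, plus strand): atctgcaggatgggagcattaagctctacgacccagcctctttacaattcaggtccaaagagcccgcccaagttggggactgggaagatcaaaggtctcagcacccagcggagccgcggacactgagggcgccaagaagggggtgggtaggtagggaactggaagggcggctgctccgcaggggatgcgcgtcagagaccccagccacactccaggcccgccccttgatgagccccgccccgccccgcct
Cxcl2 (chr5:90903649-90903898, plus strand): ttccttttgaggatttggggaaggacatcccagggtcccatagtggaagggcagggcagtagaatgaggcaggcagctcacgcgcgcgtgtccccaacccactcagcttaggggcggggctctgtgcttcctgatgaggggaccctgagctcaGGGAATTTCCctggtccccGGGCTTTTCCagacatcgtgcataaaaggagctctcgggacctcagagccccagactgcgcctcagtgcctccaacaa
Cxcl3 (chr5:90785851-90786100, plus strand): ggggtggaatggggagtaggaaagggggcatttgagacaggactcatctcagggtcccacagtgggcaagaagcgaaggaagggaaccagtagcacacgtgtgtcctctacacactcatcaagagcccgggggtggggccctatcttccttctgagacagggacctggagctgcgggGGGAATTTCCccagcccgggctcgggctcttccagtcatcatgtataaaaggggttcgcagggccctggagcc
The window of Cxcl2 holds 2 matches, beginning at positions -97 and -78 from the start, and they do not overlap. The window of Cxcl3 holds 1 match, beginning at position -73, and that of Cxcl12 holds none. The motif was found in 1.41% of 32851 such windows of all genes. Of the 44 members with a window, 6 hold it, namely Cxcl1, Cxcl2, Cxcl3, Ccl9, Ccl20 and Ccr3. Their differences of -0.37, 0.36, -0.52, 0.27, -0.55 and 0.96 had no common direction, and Cxcl1 and Ccl20 were near background. A match describes the letters of the window and does not show binding. GC content was 64.4% in the Cxcl12 window and 60% in those of Cxcl2 and Cxcl3, against a median of 52.4% over all windows.

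The remaining ligand above the negative control level was Ccl27a, which encodes a skin-homing ligand of CCR10. It read 5.06 on the array labelled knockout and 4.37 on the wild-type array, where it was under the control level. It was at least 1.19-fold higher, or 0.26 in log2, a limit smaller than its local spread of 0.44. Near-identical copies of this gene in the mouse genome could share its probes. Ccr10 read 2.36 on both arrays to all deposited digits, as did 509 of the 19505 genes.

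The 28 ligands near background had differences between -0.55 (Ccl20, a CCR6 ligand) and 0.78 (Cxcl9). Of these, 12 read higher and 15 lower on the array labelled knockout and 1 alike. The largest differences past the level filter were those of Cxcl14, at 3.34 on the array labelled knockout and 2.75 on the wild-type array, of the mucosal CCR10 ligand gene Ccl28, at 3.03 and 3.57 in the same order, and of Cxcl10 (0.53). The interferon-induced CXCR3 ligand genes Cxcl9, Cxcl10 and Cxcl11 differed by 0.78, 0.53 and -0.27. The genes of the monocyte-attracting CCR2 ligands Ccl2, Ccl7, Ccl8 and Ccl12 differed by 0.45, -0.18, 0.25 and 0.20. The CCR7 ligand genes Ccl19, Ccl21a, Ccl21b and Ccl21c, the last 3 being near-identical paralogs, differed by 0.16, -0.17, -0.09 and 0. The CCR9 ligand gene Ccl25 (-0.34), the CXCR6 ligand gene Cxcl16 (-0.19) and the fractalkine gene Cx3cl1 (0.04) were also near background. The rest were Ccl1 (0.45), Ccl26 (0.45), Cxcl13 (0.41), Ccl11 (-0.20), Ccl24 (-0.20), Ccl17 (-0.21), Ccl22 (-0.26) and Cxcl17 (-0.39). No reading in this group reached the negative control level, so these differences have no fold.

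**Figure D3:**
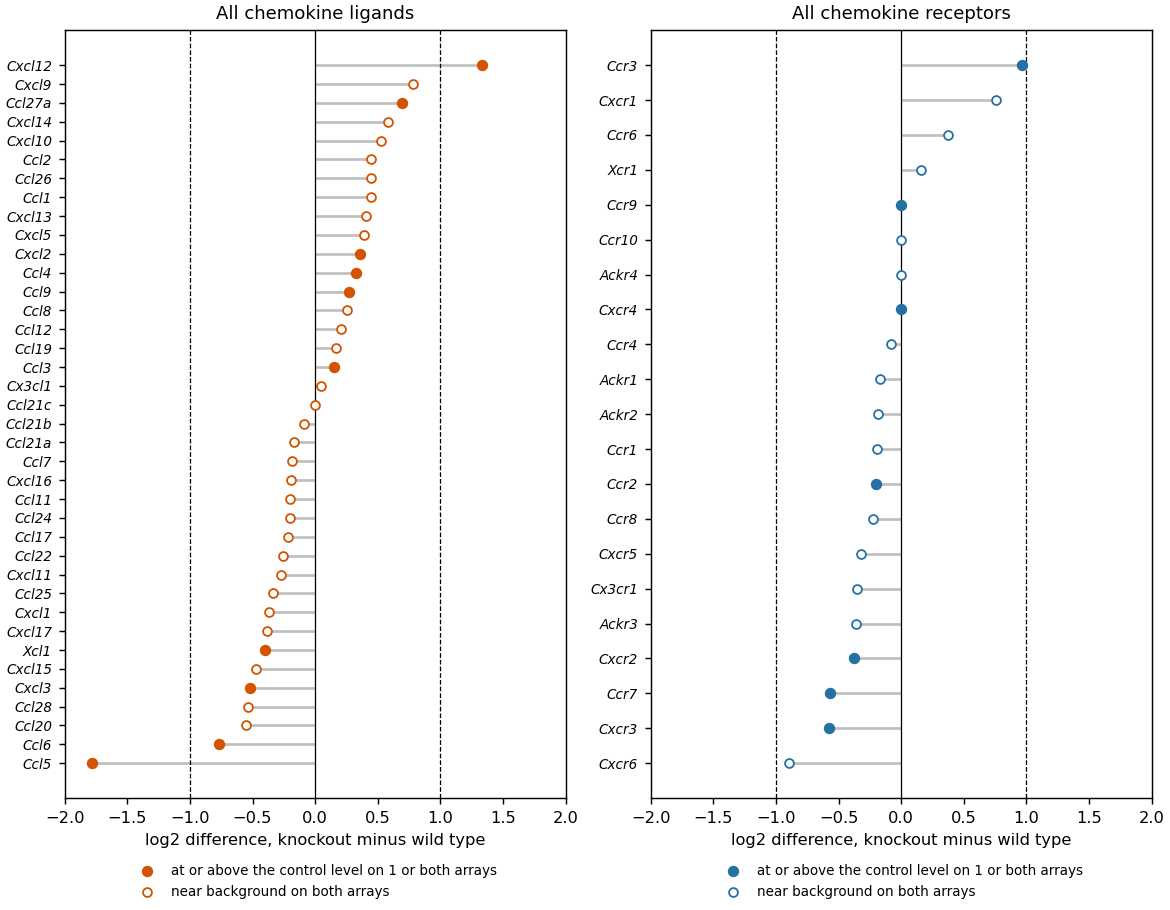
Difference (knockout minus wild type, log2, x axis) of all 38 chemokine ligands (left) and 21 receptors (right), ordered by difference. Filled points are genes at or above the negative control level on 1 or both arrays, open points genes near background, and dashed lines mark 2-fold. Open points make up most of both panels, 28 ligands and 14 receptors.

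Among the receptors of lymphoid progenitors and lymphocytes, Ccr9 and Cxcr4 read alike on both arrays, and Ccr7 and Cxcr3 read lower on the array labelled knockout. Ccr9 (Entrez gene 12769), the receptor for thymic and gut CCL25, read 6.55 on the array labelled knockout and 6.55 on the wild-type array, differing by 0.0012 (local spread 0.30). After a loess correction on level the differences of Ccr9 and Cxcr4 were both -0.15, still inside their local spreads. Ccr7 (Entrez gene 12775), which guides cells to lymph nodes and the thymus, read 5.95 on the array labelled knockout and 6.52 on the wild-type array, differing by -0.57 (local spread 0.29). Cxcr3 (Entrez gene 12766), a receptor of activated T cells and NK cells, read 5.92 on the array labelled knockout and 6.50 on the wild-type array, differing by -0.58 (local spread 0.29). Both were 1.49-fold lower, past the local spread but short of 2-fold. T cells express Ccr7 and Cxcr3 as well, and the T cell list above had a median of -1.18. The part of T cell RNA in these readings was not tested.

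Cxcr6 was near background, at 2.58 on the array labelled knockout and 3.47 on the wild-type array, so its measured difference of -0.89 has no fold. The other homing receptor genes were also near background, with differences of 0.37 for Ccr6, a receptor of ILC3 and B cells, and -0.32 for Cxcr5, the B cell follicle receptor. Ccr8 was at -0.23 and Ccr4 at -0.08.

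Of the receptors of myeloid cells, Ccr2 (Entrez gene 12772), which brings monocytes out of the marrow, read 6.28 on the array labelled knockout and 6.48 on the wild-type array. Its difference of -0.20 lay inside the local spread of 0.30. Of 6 monocyte genes, Ccr2 among them, 5 read higher on the array labelled knockout, with a median of 0.24. All 6 passed the level filter, and 58.2% of all genes past it read higher. Only 2 of the 6 differed by more than their local spread. Named by the rule are Ly6c2, at 10.85 on the array labelled knockout and 10.70 on the wild-type array, and Csf1r, at 7.27 and 7.03 in the same order. Their differences of 0.15 and 0.24 lay inside their local spreads of 0.17 and 0.27. Ccr3 (Entrez gene 12771), the eotaxin receptor of eosinophils and basophils, read 4.98 on the array labelled knockout and 4.02 on the wild-type array, under the control level there. The measured difference was 0.96 against a local spread of 0.40, and as a limit Ccr3 was at least 1.13-fold higher. The eosinophil list, by contrast, read lower on the array labelled knockout (median -1.52). The difference in direction between Ccr3 and that list was not tested.

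The remaining receptors were near background on both arrays. Cx3cr1, the fractalkine receptor gene, read 3.97 on the array labelled knockout and 4.32 on the wild-type array, and Ccr1 was at -0.19. Cxcr1 (0.75) and Xcr1 (0.16) were under the level filter. The atypical receptor genes Ackr1, Ackr2, Ackr3 and Ackr4 had differences of -0.17, -0.18, -0.36 and -0.0035. In the reference row of Cxcr6, Xcr1, Ccr1, Ccr3 and Ccr2, in which Ccr1l1 also lies, the differences were -0.89, 0.16, -0.19, 0.96 and -0.20, and near background readings make up most of the row.

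Chemokine receptors signal through Gi proteins to PI3Kγ, Rac and integrin activation and are shut off by receptor kinases, arrestins and RGS proteins. Of 37 listed genes of this machinery 33 were measured, 29 of them above the negative control level on both arrays. None differed 2-fold, while 1.56% of all genes past the level filter were 2-fold higher and 0.781% lower. The 33 had 21 higher and 12 lower readings on the array labelled knockout. Their median was 0.10, against 0.08 for all genes past the filter. Of the 30 at or above the control level on 1 or both arrays, 20 read higher and 10 lower. Among all genes so measured, 66.4% read higher and 33.3% lower. The largest difference among those above the control level was that of the receptor kinase gene Grk6, at 5.54 on the array labelled knockout and 6.19 on the wild-type array (-0.65, local spread 0.34). The G protein subunit gene Gnb1 read 8.23 on the array labelled knockout and 7.81 on the wild-type array (0.42, local spread 0.21). Further from 0 than the rest were also the arrestin gene Arrb1 (0.39), Rgs19 (0.35), the Rac exchange factor gene Prex1 (0.34) and Rgs1 (-0.35), an inhibitor of Gi signalling. Rgs16, near background, was at -0.99.

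**Figure D4:**
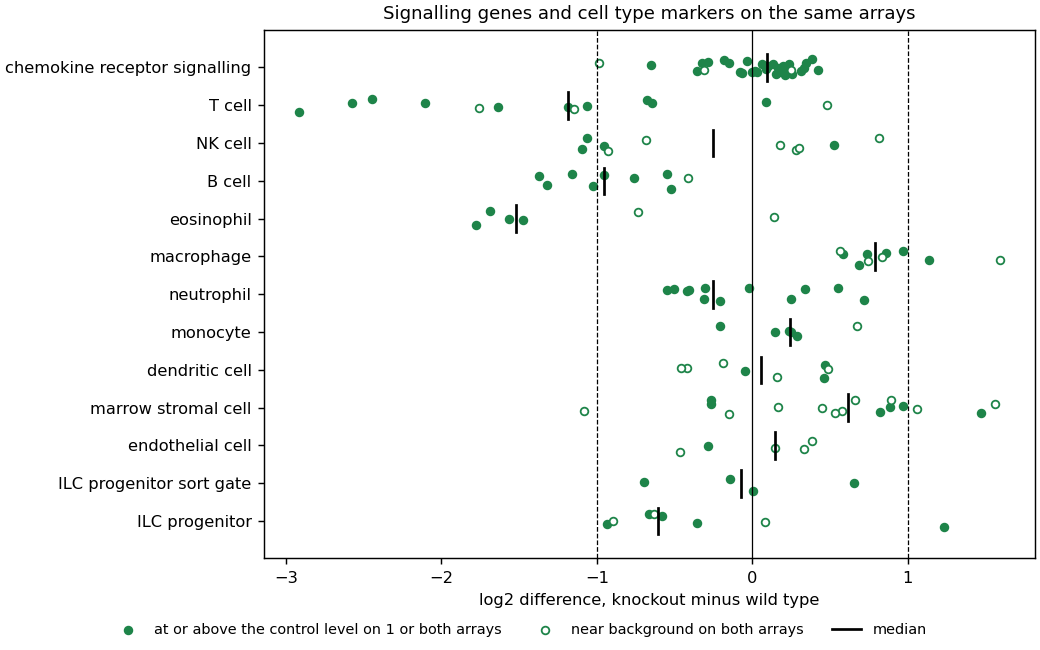
Difference (knockout minus wild type, log2, x axis) of each measured gene of the chemokine receptor signalling list and of the cell type marker lists (rows). Filled points are genes at or above the negative control level on 1 or both arrays, open points genes near background, black bars list medians and dashed lines 2-fold. The T cell, B cell and eosinophil medians lie at or left of -0.95, the macrophage median at 0.79 and the signalling median at 0.10.

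Of 5 listed genes of the sort gate 4 were measured, and Ly6a (Sca-1) was not. Il7r (CD127), Kit, Itga4 and Itgb7 were above the negative control level on both arrays. So were lineage genes such as Cd79a, at 7.56 on the array labelled knockout and 8.33 on the wild-type array. Cd3e read 5.69 and 7.79 in the same order. These readings therefore do not show how pure the sort was. Il7r read 6.38 on the array labelled knockout and 7.07 on the wild-type array, a difference of -0.70 that is larger than its local spread of 0.28. Kit read 7.77 on the array labelled knockout and 7.12 on the wild-type array (0.65, local spread 0.25). Itga4 read 7.38 on both, and Itgb7 differed by -0.14. Of 8 measured ILC progenitor genes, 2 read higher and 6 lower on the array labelled knockout, with a median of -0.60. Cxcr6, a chemokine receptor gene counted above, is 1 of the 8. It was near background, as were Il18r1 and Pdcd1. Of the 5 at or above the control level on 1 or both arrays, 1 read higher and 4 lower. Over all 19505 genes 9915 read higher and 9081 lower. The highest-read, Id2 and Nfil3, were at 1.23 and -0.93. B cell genes read lower on the array labelled knockout in 9 of 9 cases (median -0.95), from -1.37 (Vpreb1) to -0.41 (Ms4a1), with the highest-read genes Cd79a and Igll1 at -0.76 and -1.16. The highest-read macrophage genes were Vcam1 (0.97) and C1qb (0.58). Dendritic cell genes had a median of 0.06, with Siglech at -0.05 and Bst2 at 0.47, and endothelial genes 0.14, with Pecam1 at -0.29 and Cdh5 at 0.14.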

How the data were processed

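RNA of 2 sorted samples, 1 per genotype, was hybridised to Affymetrix arrays per the labels' protocols. The deposited log2 values were made by the authors in Affymetrix Power Tools by RMA, per the submitters' processing notes. RMA equalises the distributions of probe intensities between arrays, so a shift in total RNA per cell cannot be seen. The deposited values still differ slightly in distribution, with medians of 2.87 on the array labelled knockout and 2.91 on the wild-type array. Versions and build are not given in the sources. Per the design text the array was Mouse Gene 2.0, but the probe set names belong to another Affymetrix mouse platform, so the array type is not settled. Names come from that platform's annotation. All 59 members matched the reference gene table (GRCm38.p6), used for names and gene order, and 44 had a promoter window.

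Values were used as deposited, with no test. A gene under the control level on 1 array has its fold bounded against 4.80, which takes the other reading as exact. Alternatives were the level filter (none, 4.84, 4.75), values raised to 4.80, median centring, loess on level (span 0.3), quantile normalization, the mean of probe sets and 1.5-fold. Members and lists were chosen with earlier results of these data known. The rule names all members at or above the control level, the 3 near background ligands and receptors of largest difference past the filter, 6 signalling genes and the 2 highest-read genes of each marker list. Others were picked with their values known. Calculations, tested on simulated data, used Python 3.11.15, numpy 2.4.6, pandas 2.3.3, statsmodels 0.14.6 and matplotlib 3.10.9.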

Additional observations from a re-analysis of the deposited data

How the results depend on the processing

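Under every alternative with the 2-fold threshold, Cxcl12 was the single ligand counted as higher and Ccl5 the single ligand counted as lower, and no receptor was counted. With a 1.5-fold threshold 2 ligands were higher and 2 lower, and 1 receptor was higher and 1 lower, as measured. Of these, Ccl27a and Ccr3 are bounded at 1.19-fold and 1.13-fold and Cxcr6 is near background, so that against the control level as a floor 1 ligand was higher, 2 were lower and no receptor passed 1.5-fold. Over all genes past the level filter 9.16% were at least 1.5-fold higher and 5.16% lower. The difference of Ccl5 ranged from -1.93 to -1.77 and that of Cxcl12 from 1.18 to 1.35. The receptor median ranged from -0.36 to -0.0022 and was closest to 0 with values raised to the control level. The ligand median was 0.21 with the filters at the 75th percentile and at the control level and -0.04 with no filter. With values raised, Ccr3 was at 0.18 and Cxcl14, Ccl28, Cxcl10 and Cxcr6 at 0, because readings near background were set equal. No alternative moved the median of all genes past the filter by more than 0.08. Signal over the negative controls limits 42 of the 59 members, which were near background. No paired analysis was possible because each genotype has 1 array.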

Other observations

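Chemokine genes that carry other symbols were read as well. Ccrl2, an atypical receptor-like protein that presents chemerin, read 4.82 on the array labelled knockout and 4.81 on the wild-type array, above the control level on both. Pf4, a platelet chemokine gene, read 4.34 on the array labelled knockout and 4.29 on the wild-type array, and Ppbp, another platelet chemokine gene, read 2.78 and 2.54 in the same order, all near background. The chemerin receptor gene Cmklr1 (0.07) and Ccr1l1 (0.48) were also near background.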
